A study of Mus musculus with 10 samples.

Results

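The genes described here encode lysosomal enzymes and membrane proteins. They were taken by name from the deposited table, and all 33 named genes were found among its 35976 genes. By role they fall into 8 cathepsins and other proteases, 9 glycosidases, 4 sulfatases, 3 hydrolases of lipids and thioesters, 4 soluble activators and carriers, and 5 membrane proteins. The list was set by name and not by measured values, but with earlier results of these data known.

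RNA was measured in mouse morulae lacking Jarid2 and in their controls. Jarid2 is a cofactor of the Polycomb complex PRC2, and the study asks what its loss does at this stage. The single-embryo set held 3 Jarid2 knockout libraries (replicates 1, 3 and 4) and 3 wild-type libraries, each from 1 female embryo. The pooled set held 2 Jarid2 knockout and 2 control libraries of about 20 embryos each. Every embryo was of the strain combination BDF1 x PWK, and the zona pellucida was removed before lysis. The labels give neither the sex of the pooled embryos, nor the genotype of their controls, nor the exons of Jarid2 that were deleted. They do not say whether pools were collected from different litters, and p-values there reflect only how far these particular pools vary, which can be a technical matter.

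Lysosomes are acidic compartments that break down proteins, glycans, glycogen, nucleic acids and lipids brought in by endocytosis or by autophagy. Their soluble hydrolases are made in the endoplasmic reticulum, receive a mannose 6-phosphate tag in the Golgi and are carried onward by receptors for that tag, while a proton pump, the V-ATPase, keeps the lumen acid. The transcription factor TFEB and its relatives bind a palindromic E-box, CACGTG, in the promoters of many lysosomal genes. In the mouse, autophagy is needed for development in the days after fertilisation.

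Single-embryo libraries held 14830332 to 18696312 counts each, and pooled ones 41003216 to 49861963. Jarid2 itself had 156.1, 318.7 and 61.3 CPM (counts scaled to 1 common library total) in knockout single embryos 1, 3 and 4, against 580.3, 686.0 and 775.6 CPM in wild-type ones, and 180.6 and 157.9 CPM in knockout pools, against 442.5 and 496.3 CPM in control pools. On the first principal component of 8009 genes, which took up 50.1% of the variance, knockout single embryos were at -30.1 to 9.5, wild-type single embryos at 34.4 to 53.0, knockout pools at -30.5 to -10.6 and control pools at -31.4 to -14.9. All 3 wild-type single embryos thus stood apart from the other 7 libraries, so the single-embryo comparison cannot be given without them. The markers of a morula (Pou5f1, Nanog, Tead4 and others) summed to 4028.7 to 4587.6 CPM in knockout and 4107.5 to 4940.4 CPM in wild-type single embryos. Most of this sum came from 1 marker, Dppa5a, with means of 3035.4 CPM in knockouts and 2948.7 CPM in wild types. Of these 8 markers, the cadherin gene Cdh1 fell in single embryos, with a mean of 160.4 CPM in knockouts, against 608.4 CPM in wild types (log2 change -1.91, edgeR adjusted p = 0.018), and Klf5 had 0.62 (adjusted p = 0.0939). All 8 markers of macrophages and blood were under 3 CPM in every library, and 7 of 8 cumulus and granulosa markers were under 1 CPM, 4 of them at 0 throughout. The other, Amhr2, averaged 36.2 CPM in knockout and 39.4 CPM in wild-type single embryos. Of 7 oocyte or polar body markers, 6 were under 3 CPM in every library. The other, Zp3, averaged 65.2 CPM in knockout and 112.6 CPM in wild-type single embryos (log2 change -0.72, edgeR adjusted p = 0.384).

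Of the 33 genes, 29 had a promoter window in the RefSeq table for GRCm38.p6, which runs from 250 bases before to 50 bases after a gene's start; Ctsb, Ctsh, Asah1 and Npc1 had none. CACGTG, which reads the same on both strands, was present for 9 of the 29 genes (31.0%), namely Arsa, Ctsa, Ctsd, Ctsl, Gaa, Gla, Glb1, Lamp1 and Sgsh. It was present for 8.09% of all 27025 genes with such a window and for 11.8% of the 10254 of them tested in single embryos. The longer form TCACGTGA, which contains CACGTG, was present for Ctsa, Ctsd and Gla (10.3%), against 1.12% of all genes and 2.07% of those tested. Stretches before the start are shown for the 4 of these genes that fell in single embryos and, for comparison, for Gla and Glb1, which did not pass the test. They are written 5′ to 3′ along the gene's strand, with TCACGTGA, or CACGTG where the longer form is absent, in capitals.
Ctsa (GRCm38.p6, chr2:164833737-164833772, plus strand): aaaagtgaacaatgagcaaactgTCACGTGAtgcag
Ctsd (GRCm38.p6, chr7:142387896-142387949, minus strand): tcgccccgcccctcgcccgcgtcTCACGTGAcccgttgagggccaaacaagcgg
Lamp1 (GRCm38.p6, chr8:13159076-13159160, plus strand): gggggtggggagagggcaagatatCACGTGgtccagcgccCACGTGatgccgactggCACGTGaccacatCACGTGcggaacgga
Gaa (GRCm38.p6, chr11:119267799-119267852, plus strand): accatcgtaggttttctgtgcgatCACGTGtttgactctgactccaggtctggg
Gla (GRCm38.p6, chrX:134601170-134601255, minus strand): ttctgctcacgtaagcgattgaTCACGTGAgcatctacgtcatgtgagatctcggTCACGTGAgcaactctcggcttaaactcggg
Glb1 (GRCm38.p6, chr9:114401006-114401059, plus strand): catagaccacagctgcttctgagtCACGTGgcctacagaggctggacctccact
Lamp1 held 4 matches within 61 bases of its start. Ctsa and Ctsd each held a further match that is not shown. In Ctsa it was TCACGTGA just after the start, and in Ctsd CACGTG 245 bases before the start. In single embryos, 4 of the 9 genes with CACGTG and 10 of the 19 tested genes without it fell, with median log2 changes of -1.07 and -1.05. A match describes these letters and says nothing about binding in these embryos.

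In single embryos, 17 of the 32 genes tested fell in knockouts and 0 rose. They include the membrane glycoprotein genes Lamp1 and Lamp2, the cathepsin genes Ctsa, Ctsb and Ctsd, the hexosaminidase gene Hexa, the sialidase gene Neu1 and the progranulin gene Grn. Their mean CPM in knockouts was 22.3% to 54.5% of the wild-type mean. Among all 13830 genes tested, 3.21% fell and 1.16% rose by the same rule (edgeR quasi-likelihood test, Benjamini-Hochberg adjusted p under 0.05 over all genes). Over all genes the calls were 444 lower and 161 higher, and with upper-quartile scaling 423 lower and 301 higher. The same 17 members fell under both, and 0 rose. With DESeq2 size factors as edgeR's scaling, 408 genes were lower and 189 higher. There 15 members fell and 0 rose, and Ctsb and Lamp2 lost their calls. DESeq2 called 20 members lower and 0 higher, where it called 7.27% of all genes lower (1006) and 6.88% higher (951), a more even split than edgeR's. The median log2 change of the 32 genes was -1.06, against -0.03 over all genes, and 30 of the 32 changes were negative. Manba, which encodes beta-mannosidase, was removed by the filter on low counts.

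In 20 of the 32 genes tested every knockout library lay below every wild-type library, and in 0 above, where 15.3% and 12.6% of all genes showed such separations. The 20 are the 17 that fell, whose call nearly fixes their separation, and Tpp1, Glb1 and Ppt1. The adjusted p of the 17 ran from 0.012 to 0.0478. The 33 genes took 0.931%, 0.751% and 0.907% of all counts in knockout embryos 1, 3 and 4, against 1.73%, 1.85% and 1.94% in wild-type embryos. Cd63 alone made up 26.1% to 32.0% of this sum in knockouts and 24.1% to 31.9% in wild types, and without it the shares were 0.514% to 0.671% in knockouts, against 1.18% to 1.41% in wild types. In such whole-embryo libraries, fewer cells of a type and less RNA per cell cannot be told apart. All 17 calls were lost when wild-type embryo 3 or knockout embryo 4 was left out, when 1 gene of the whole table was called. Without wild-type embryo 1 the count was 2 and without knockout embryo 1 it was 4, while the median change stayed at -1.13 to -0.96 over all 6 such fits.

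**Figure D1:**
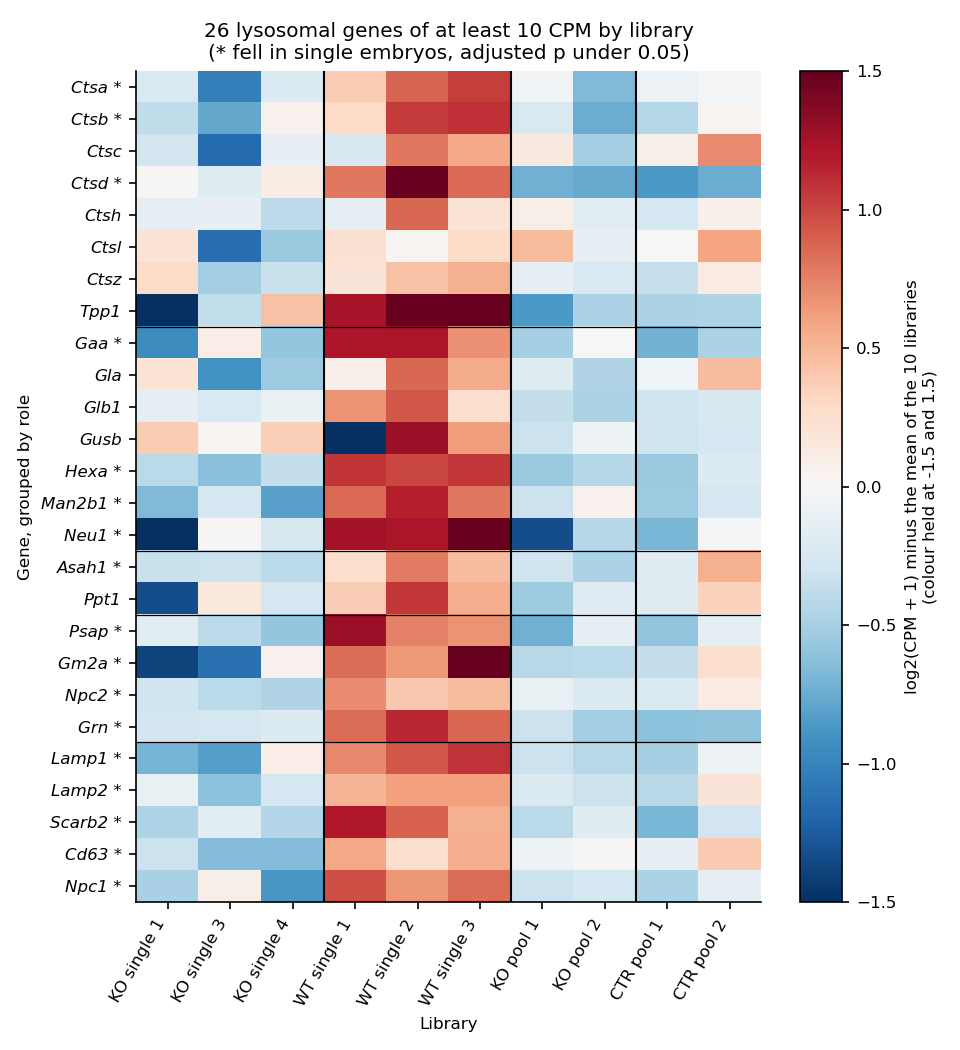
Each row is 1 of the 26 genes that averaged at least 10 CPM in single embryos, each column a library, and the colour gives log2(CPM + 1) minus the gene's mean over the 10 libraries. Knockout single embryos have library medians of -0.38 to -0.29 over these genes, against 0.65 to 0.88 in wild-type single embryos, which are red in nearly every row.

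Per kilobase of transcript, Cd63 stood highest, at 2420 CPM per kilobase in knockout and 4840 in wild-type single embryos. It encodes a tetraspanin of late endosomes and exosomes, and no other member came near it. Ctsd (324 in knockouts, 689 in wild types) and Lamp1 (273 and 687) followed, and their wild-type ranges overlapped. Grn (208 and 479) came next, then Npc2 (198 and 373) and Ctsa (159 and 372), whose wild-type ranges also overlapped. At the low end, Arsb, Lipa, Manba, Idua and Sgsh were at 0.350 CPM per kilobase or less in knockouts and at 1.14 or less in wild types.

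All 5 membrane protein genes fell. Lamp1, which encodes a heavily glycosylated protein of the limiting membrane (GRCm38, chr8:13159161-13175338), had 499.8, 456.6 and 866.5 CPM in knockout embryos 1, 3 and 4, against 1336.0, 1549.3 and 1709.9 CPM in wild types. The knockout libraries were all lower, with knockout 4 the nearest to the wild types (log2 change -1.28, SE 0.25, adjusted p = 0.025). Lamp2, an X-linked gene whose product also serves in autophagy, had 293.4, 206.1 and 266.4 CPM in knockouts, against 452.6, 485.2 and 487.1 CPM in wild types (-0.84, SE 0.21, adjusted p = 0.0464). Cd63 had 2976.8, 2368.4 and 2364.7 CPM in knockouts, against 5526.7, 4467.8 and 5426.6 CPM in wild types (-0.95, SE 0.18). Scarb2 encodes the receptor that delivers glucocerebrosidase to the lysosome. Its values were 108.2, 133.1 and 109.9 CPM in knockouts, against 346.8, 278.5 and 217.7 CPM in wild types (-1.22, SE 0.21). Npc1, the membrane exporter of cholesterol, had 45.0, 67.5 and 34.1 CPM in knockouts, against 124.2, 100.3 and 113.7 CPM in wild types (-1.18, SE 0.26, adjusted p = 0.0344).

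The 4 genes of soluble activators and carriers fell as well. Npc2, which hands cholesterol to Npc1, had 689.3, 642.5 and 624.0 CPM in knockouts, against 1387.2, 1123.5 and 1180.6 CPM in wild types (-0.87, SE 0.17). Psap encodes the precursor of the saposins, which help hydrolases reach membrane lipids. It had 234.5, 200.7 and 175.2 CPM in knockouts, against 648.7, 445.8 and 420.8 CPM in wild types (-1.26, SE 0.22). Gm2a encodes the activator that presents gangliosides to hexosaminidase A, and spread more widely, with 130.4, 157.4 and 360.3 CPM in knockouts, against 614.5, 541.0 and 1272.4 CPM in wild types (-1.87, SE 0.42). Grn, progranulin (GRCm38, chr11:102430315-102437048), was among the most even genes of the list, with 476.5, 481.6 and 502.2 CPM in knockouts, against 1039.4, 1272.2 and 1049.9 CPM in wild types. Its log2 change was -1.15 (SE 0.16, adjusted p = 0.012).

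**Figure D2:**
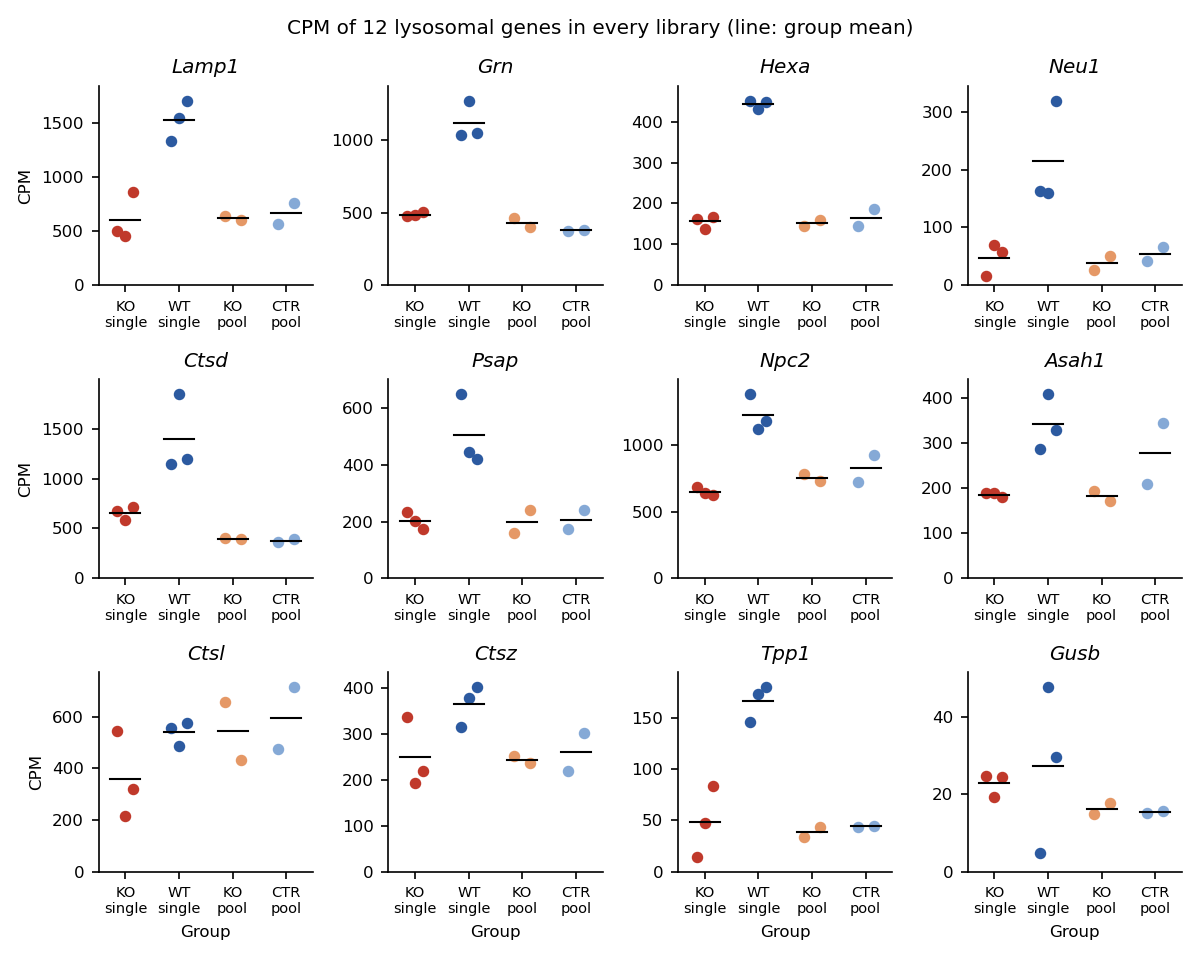
CPM (linear axis from 0) of 12 of the genes, chosen after their values were seen, in every library, with a line at each group's mean; groups run from knockout to wild-type single embryos and from knockout to control pools. Among wild-type single embryos, Hexa shows the closest replicates (431.7 to 451.0 CPM) and Gusb the widest, with 1 embryo at 4.9 CPM. In knockout single embryos Hexa ran from 138.7 to 166.9 CPM.

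Among the 9 glycosidases, 4 of the 8 tested fell and all 8 changes were negative (median -1.42). Hexa encodes the alpha subunit of hexosaminidase A (GRCm38, chr9:59539540-59565109), and had 161.9, 138.7 and 166.9 CPM in knockouts, against 451.0, 431.7 and 448.8 CPM in wild types (-1.46, SE 0.19, adjusted p = 0.012). Neu1, the lysosomal sialidase (GRCm38, chr17:34931253-34935953), showed the most negative log2 change of all 32 genes, -2.16 (SE 0.45, adjusted p = 0.0284), with 16.5, 68.9 and 57.7 CPM in knockouts, against 163.4, 160.3 and 319.2 CPM in wild types. Knockout embryo 1 lay lowest, so the size of this fall varied between embryos. Gaa, which digests glycogen, had 78.2, 163.0 and 100.7 CPM in knockouts, against 353.1, 354.6 and 244.1 CPM in wild types (-1.45, SE 0.25). Man2b1, an alpha-mannosidase, had 19.3, 25.7 and 17.2 CPM in knockouts, against 56.6, 71.1 and 54.3 CPM in wild types (-1.51, SE 0.27).

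The other glycosidases did not pass. Glb1, the beta-galactosidase, had 80.7, 76.0 and 83.1 CPM in knockouts, against 142.5, 170.6 and 106.5 CPM in wild types, without overlap (-0.75, SE 0.23, adjusted p = 0.0809). The X-linked Gla, an alpha-galactosidase, overlapped between the groups through knockout embryo 1, with 289.8, 133.8 and 171.7 CPM in knockouts, against 266.4, 457.7 and 370.5 CPM in wild types (-0.80, SE 0.32, adjusted p = 0.161). Gusb, the beta-glucuronidase, overlapped through wild-type embryo 1, with 24.8, 19.3 and 24.5 CPM in knockouts, against 4.9, 47.7 and 29.7 CPM in wild types (-0.20, SE 0.60). Idua and Manba averaged under 3 CPM in both groups. Manba had 4, 0 and 0 counts in knockouts, against 9, 57 and 0 counts in wild types.

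Of the 8 protease genes, 3 fell and the other 5 had negative changes that did not pass. Ctsd, the aspartic protease cathepsin D, had 671.3, 583.3 and 712.7 CPM in knockouts, against 1144.5, 1846.2 and 1191.2 CPM in wild types (-1.03, SE 0.21, adjusted p = 0.0271). Ctsa encodes a carboxypeptidase that also protects Neu1 and Glb1 in a complex, and had 569.2, 327.4 and 575.0 CPM in knockouts, against 864.3, 1218.3 and 1363.6 CPM in wild types (-1.16, SE 0.27, adjusted p = 0.0385). The cysteine protease gene Ctsb had 299.4, 228.8 and 406.8 CPM in knockouts, against 478.8, 805.5 and 832.8 CPM in wild types (-1.12, SE 0.28, adjusted p = 0.0478). In these genes wild-type embryo 1 lay lowest of the wild types. Tpp1, a tripeptidyl peptidase, had 13.9, 47.4 and 83.4 CPM in knockouts, against 145.7, 172.8 and 179.9 CPM in wild types. The groups did not overlap, the knockouts differed among themselves by a factor of 6.01, and the log2 change of -1.75 did not pass (SE 0.47, adjusted p = 0.0618). Ctsl, an endopeptidase, had 546.8, 214.0 and 321.8 CPM in knockouts, against 556.0, 488.2 and 574.4 CPM in wild types, and knockout embryo 1 lay within the wild-type range (-0.50, SE 0.32, adjusted p = 0.383). Ctsc (-0.82, SE 0.32), Ctsh (-0.55, SE 0.32) and Ctsz (-0.48, SE 0.25) also overlapped between the groups.

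Of the lipid and thioester hydrolases, the acid ceramidase gene Asah1 fell, with 188.7, 190.7 and 179.9 CPM in knockouts, against 286.5, 409.7 and 329.9 CPM in wild types (-0.83, SE 0.19, adjusted p = 0.037). Ppt1, which removes palmitate from proteins, had 13.4, 39.3 and 29.2 CPM in knockouts, against 45.6, 74.2 and 51.8 CPM in wild types (-1.05, SE 0.36, adjusted p = 0.115). The acid lipase gene Lipa reached at most 2.3 CPM. Of the 4 sulfatase genes 0 passed by edgeR, also at an unadjusted p under 0.05, and 0 by DESeq2. Arsa (sulfatide), Arsb (dermatan sulfate), Ids and Sgsh (heparan sulfate) averaged under 10 CPM in single embryos in at least the knockout group, and Arsb and Sgsh averaged under 5 CPM in both groups. Their log2 changes ran from -1.68 (SE 1.15) in Sgsh to 0.51 (SE 1.54) in Arsb. The 95% intervals of Arsa, Arsb and Sgsh were wide enough to hold the fall of every enzyme gene that passed. That of Ids (-1.24 to 1.03) did not reach the falls of Gaa, Hexa, Man2b1 and Neu1.

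All 17 genes that fell averaged at least 10 CPM over the single embryos, as 26 of the 33 genes did. The 9 others at that level had negative changes too, and 6 of them overlapped between the groups. Within a group, the highest library exceeded the lowest by a median factor of 1.61 in knockouts, up to 6.01 in Tpp1, and of 1.50 in wild types, up to 9.69 in Gusb. The 33 genes lie on 17 chromosomes with at most 4 on any 1, and the 17 that fell lie on 12.

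In the pools, 0 of the 33 genes passed, where 0.0% of 16259 genes did (edgeR adjusted p under 0.05). Jarid2 itself did not pass there (log2 change -1.55, SE 0.18, edgeR adjusted p = 0.0792), so not passing in the pools does not show an absence of change. At an unadjusted p under 0.05 there were 5 of the 33 (Asah1, Gla, Ppt1, Ctsc and Gm2a, the lowest 0.0127), all with negative changes. Of all genes 6.6% met this in either direction and 2.34% with a negative change. DESeq2 called 0 of the 33, and of all genes 0.0431% lower and 0.394% higher. The median log2 change was -0.19, against 0.01 over all genes. Of the 33, 8 were lower in both knockout pools than in both control pools and 3 were higher, where 11.1% and 24.3% of all genes were. Lamp1 had 645.4 and 604.3 CPM in knockout pools, against 570.9 and 765.9 CPM in control pools (-0.18, SE 0.18), and Hexa 146.0 and 159.5 CPM, against 145.5 and 185.4 CPM (-0.20, SE 0.17). The knockout and control pools overlapped in each. Grn stood at 461.8 and 403.4 CPM in knockout pools, against 376.5 and 379.6 CPM in control pools (0.11, SE 0.17). Ctsd was nearly level, with 400.9 and 390.9 CPM in knockout pools, against 364.3 and 394.6 CPM in control pools (-0.02, SE 0.16).

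Among the 26 genes of at least 10 CPM, the most negative pooled changes were in Asah1, with 193.3 and 172.2 CPM in knockout pools, against 209.9 and 345.7 CPM in control pools (-0.68, SE 0.23, adjusted p = 0.645), and in Ctsc, with 689.0 and 444.0 CPM in knockout pools, against 664.7 and 1025.3 CPM in control pools (-0.64, SE 0.26, adjusted p = 0.702). In both, control pool 2 was far above control pool 1. The median change of the 33 genes was -0.01 without control pool 2 and -0.34 without control pool 1. For the 17 genes that fell in single embryos, the pooled log2 changes ran from -0.68 to 0.27 with a median of -0.20. Among the 26 genes of at least 10 CPM, 5 pooled intervals reached -1, and the lowest bound was -1.22.

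**Figure D3:**
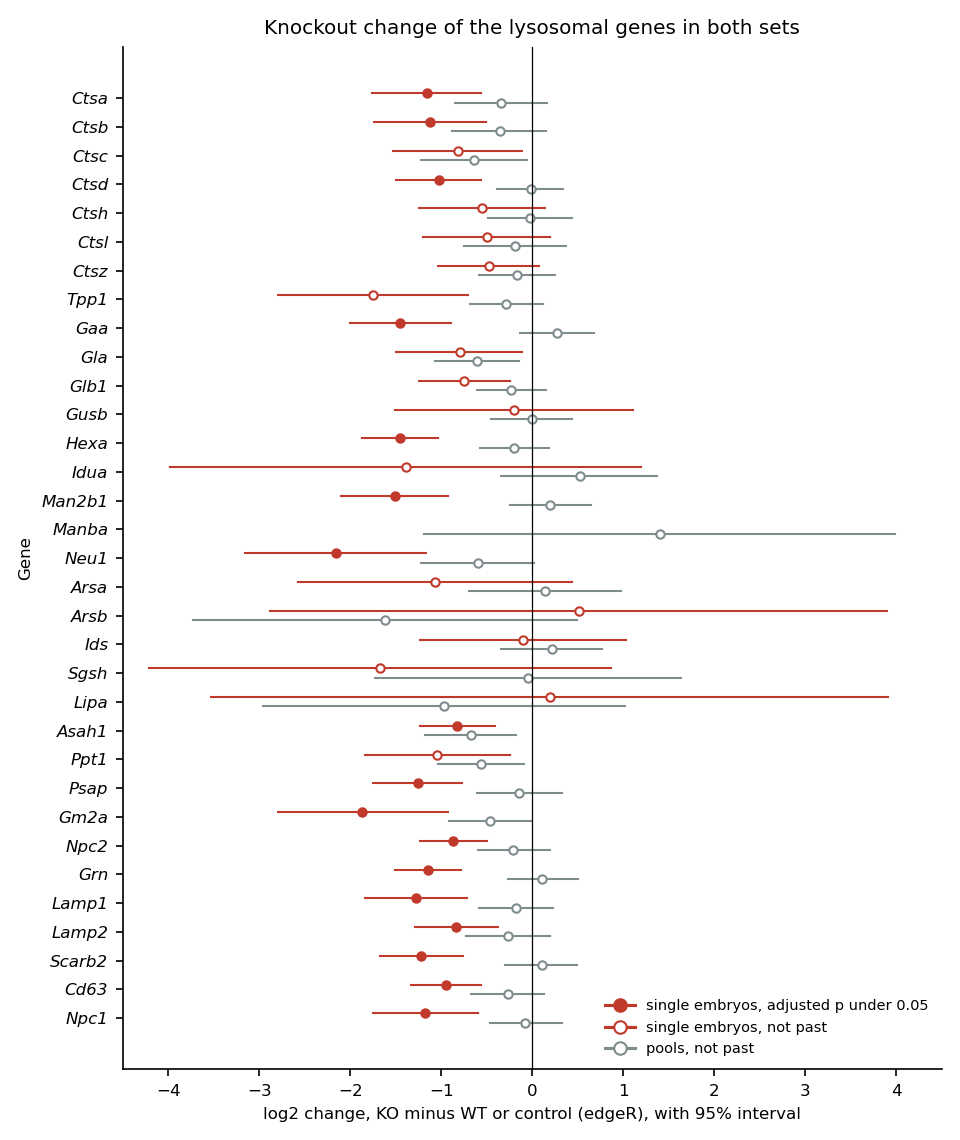
Log2 change of each gene in knockouts over wild types or controls with its 95% interval, single embryos (red, drawn above) and pools (grey); filled points passed an adjusted p of 0.05 and Manba was tested in pools alone. In single embryos the points run from -2.16 to 0.51, and the pooled points of the 17 genes that fell lie between -0.68 and 0.27.

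Whether the knockout effect differed between the sets was tested in 1 fit over all 10 libraries. That fit took 1 shared spread per gene, though single embryos and pools may spread differently, which limits its SEs and p-values. No member passed (lowest adjusted p = 0.235), where 0.0063% of 15878 genes did, 1 gene in all. Of the 33 differences, 31 were negative, meaning a more negative change in single embryos. At an unadjusted p under 0.05 there were 13, all of them negative, where 6.55% of all genes met this in that direction. All 13 belong to the 17 that fell in single embryos, an overlap partly fixed in advance because both tests use the same single-embryo libraries. The differences largest in size among genes of at least 10 CPM were Gaa at -1.69 (SE 0.36), Man2b1 at -1.68 (SE 0.35), Neu1 at -1.54 (SE 0.70), Tpp1 at -1.44 (SE 0.68) and Gm2a at -1.39 (SE 0.63). DESeq2 called 7 of the 33, all with the more negative change in single embryos, where it called 1.42% of all genes in that direction. These were Ctsd, Gaa, Hexa, Psap, Grn, Scarb2 and Npc1. 

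The levels of single embryos were also set against those of the pools. In 4 of 32 genes, Ctsd, Glb1, Gusb and Grn, every knockout single embryo lay above each of the 4 pools, as in 12.3% of all genes. For the wild-type single embryos this held in 20 of the 32 genes, as in 23.9% of all genes. Over the 26 genes of at least 10 CPM, mean CPM in knockout single embryos was 0.66 to 1.66 times that in knockout pools, with a median of 0.976. In wild-type single embryos it was 0.908 to 3.94 times that in control pools, with a median of 1.97. The same ratios over all genes of at least 10 CPM had medians of 1.06 and 1.13. Neu1 had a ratio of 1.24 in knockouts and 3.94 in wild types, and Ctsd had 1.66 and 3.67. Ctsl was below the pools in both ratios, at 0.66 in knockouts and 0.908 in wild types over control pools. The sets differ in embryos per library, in depth and perhaps in sex, and their parts in these ratios cannot be told apart.

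**Figure D4:**
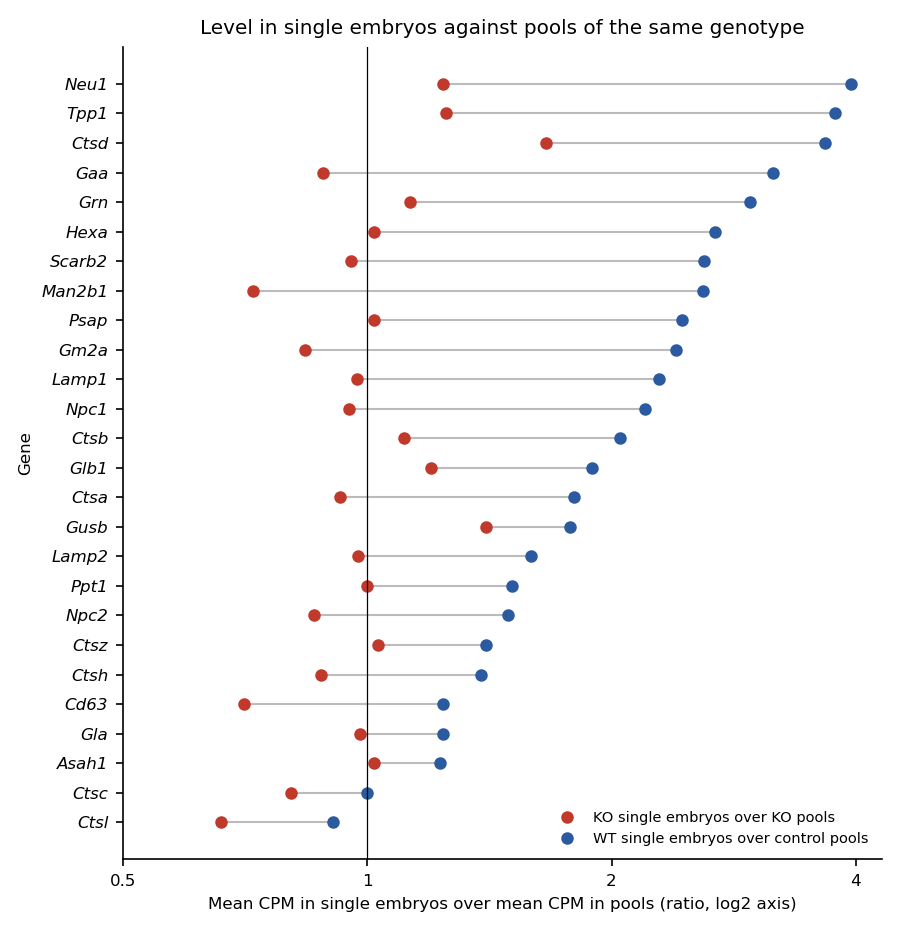
Ratio of mean CPM in single embryos to mean CPM in pools (log2 axis) for 26 genes, knockout over knockout in red and wild type over control in blue. The red points scatter around 1 (0.66 to 1.66) and the blue ones lie mostly to the right, up to 3.94 for Neu1.

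Further lysosomal genes outside the 33 were read from lists of their own. Of 28 other soluble hydrolase genes tested in single embryos, 10 fell and 0 rose (median -1.09), where edgeR called 3.21% of all genes lower and 1.16% higher. Smpd1, the acid sphingomyelinase gene, had 194.1, 225.4 and 247.5 CPM in knockouts, against 690.9, 551.2 and 1022.7 CPM in wild types (-1.73, SE 0.25, adjusted p = 0.012). Lgmn, Scpep1, Acp2, Pla2g15, Plbd2, Dnase2a and Creg1 were also among those that fell, with changes from -1.86 (Acp2) to -1.01 (Scpep1) in these 7. Of 30 other lysosomal membrane protein genes, 5 fell and 0 rose (median -1.0), beside the same shares over all genes. The 5 were Mfsd1 (-1.28, SE 0.20), Laptm4b, Spns1, Sidt2 and Abcb6. Without wild-type embryo 3 or knockout embryo 4, 0 genes of either list passed, while without wild-type embryo 1 each list had 1. In the pools 0 genes of these lists passed by edgeR and 0 by DESeq2, with list medians of -0.15 and -0.11. At an unadjusted p under 0.05 there were 8 of 31 hydrolase and 3 of 30 membrane protein genes, where 6.6% of all genes were.

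The proton pump was read in its parts, beside edgeR shares over all genes of 3.21% lower and 1.16% higher in single embryos. Of the 10 genes for V0, the membrane-embedded part, and for membrane accessory subunits, Atp6ap1 (-1.19, SE 0.22), Atp6ap2 (-0.91, SE 0.21) and Atp6v0b (-0.84, SE 0.20) fell and 0 rose (median -0.82). DESeq2 called 6 of them lower, where it called 7.27% of all genes. The edgeR count was 1 with DESeq2 size factors as the scaling, 0 without wild-type embryo 1 or 3 or knockout embryo 1 or 4, and 2 without wild-type embryo 2 or knockout embryo 3. Of the 8 genes for V1, the cytosolic part that hydrolyses ATP, Atp6v1e1 rose (0.83, SE 0.18, adjusted p = 0.0329) and 0 fell, with all 8 changes at or above 0.01 (median 0.37; 7 of 8 positive with library totals as the only scaling). DESeq2 called 3 V1 genes higher, and 6.88% of all genes. Atp6v1e1 had 473.3, 410.1 and 410.5 CPM in knockouts, against 235.1, 271.7 and 250.6 CPM in wild types, and the groups did not overlap. Without wild-type embryo 1, 2 or 3, or knockout embryo 1 or 4, Atp6v1e1 did not pass (adjusted p of 0.0564 to 0.137). In the pools 0 genes of either part passed by edgeR or by DESeq2, and the medians were -0.24 for V0 and -0.21 for V1. At an unadjusted p under 0.05 (edgeR) there were 1 of V0 and 0 of V1, where 6.6% of all genes were.

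Of 18 genes that tag and sort hydrolases, 3 fell and 0 rose (median -0.55), where edgeR called 3.21% of all genes lower and 1.16% higher. Igf2r encodes the larger mannose 6-phosphate receptor, and had 62.4, 73.2 and 58.3 CPM in knockouts, against 296.8, 173.6 and 177.2 CPM in wild types (-1.70, SE 0.25, adjusted p = 0.012). Lman1, a cargo receptor between endoplasmic reticulum and Golgi, had -1.21 (SE 0.22), and Cln8, which carries lysosomal enzymes out of the endoplasmic reticulum, -1.07 (SE 0.21). Of 24 genes of the TFEB family and the lysosomal platform of the kinase mTORC1, 0 passed by edgeR and 4 had an unadjusted p under 0.05, where 22.6% of all genes did (median -0.06). DESeq2 called 1 lower and 3 higher, counts near its shares over all genes of 7.27% and 6.88%. Tfeb itself had a log2 change of -0.11 and Tfe3 one of -0.44. Of 21 genes for fusion of endosomes with lysosomes, 0 passed by edgeR, 4 had an unadjusted p under 0.05 (median 0.24), and DESeq2 called 3 higher and 0 lower, with the same shares over all genes. Among 28 core autophagy genes, Map1lc3a, an LC3 gene, rose (1.04, SE 0.25, adjusted p = 0.0422) and 0 fell (median 0.47). The edgeR shares over all genes were 1.16% higher and 3.21% lower. Map1lc3a had 601.7, 334.2 and 401.1 CPM in knockouts, against 216.4, 236.1 and 229.6 CPM in wild types. Igf2r lost its call without wild-type embryo 3 (adjusted p = 0.0607) or knockout embryo 4 (adjusted p = 0.0663), and Map1lc3a lost it when any single embryo other than knockout 3 was left out (adjusted p of 0.0772 to 0.165). DESeq2 called 9 of the 28 autophagy genes higher and 2 lower, where it called 6.88% and 7.27% of all genes. In the pools 0 of the tagging and sorting, TFEB, fusion and autophagy genes passed by edgeR or by DESeq2. At an unadjusted p under 0.05 (edgeR) there were 0, 1, 2 and 0, where 6.6% of all genes were. The pooled list medians were -0.11, -0.04, -0.02 and -0.11. Pooled log2 changes were 0.25 (SE 0.19) in Igf2r, -0.18 in Lman1, -0.34 in Cln8 and -0.06 (SE 0.25) in Map1lc3a.

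**Figure D5:**
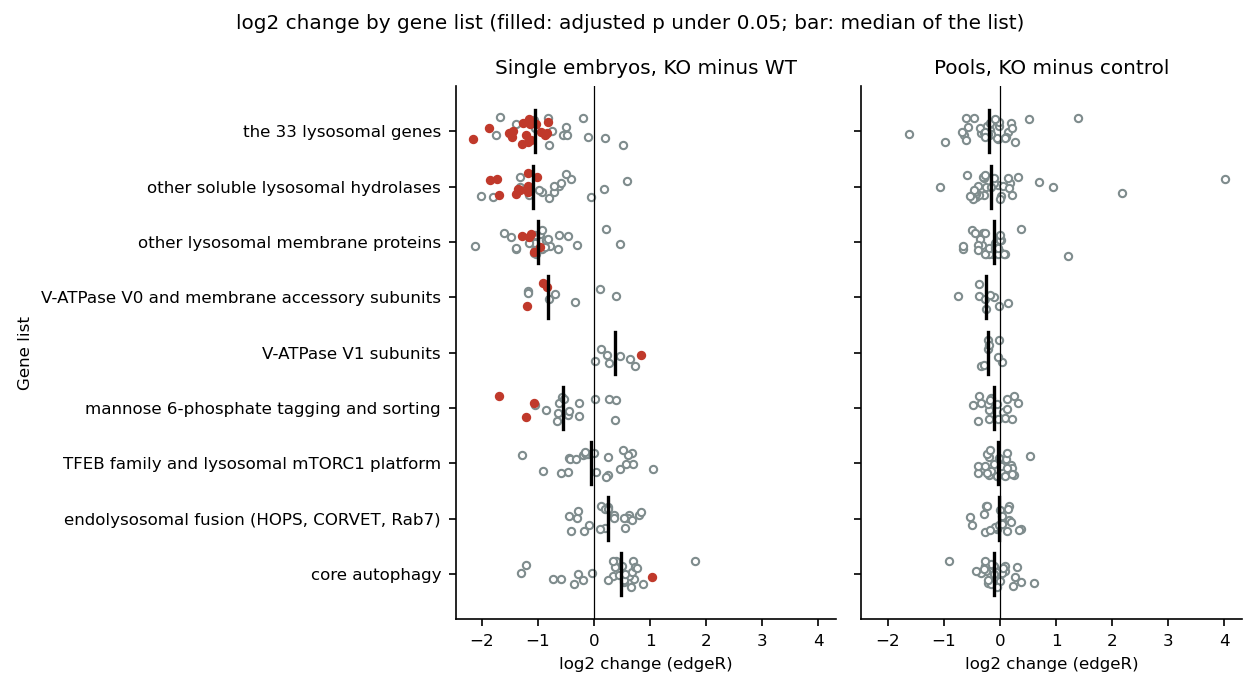
Log2 change of every tested gene of each list, knockout over wild type in single embryos (left) and knockout over control in pools (right), with filled red points for an adjusted p under 0.05 and a bar at the list's median. In single embryos the medians run from -1.09 for other soluble hydrolases to 0.47 for core autophagy, and in the pools from -0.24 for V0 to -0.02 for fusion genes.

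Most products of these genes enter the secretory route. A hydrophobic segment, which a signal peptide or a membrane span can give, was found in 26 of the 33 proteins. Of these 25 were tested, 13 fell and the median log2 change was -1.03. Of the 7 without one (Ctsa, Ctsb, Ctsh, Tpp1, Arsa, Asah1 and Grn), which are lysosomal enzymes or carriers all the same, 4 fell and the median was -1.12. The segment search does not find every protein of the secretory route, so these 7 do not stand for proteins outside it. Over all tested genes, 384 of 3878 with a segment fell (median -0.49), against 53 of 8060 without one (median 0.14), while 14 and 143 rose. With 1 embryo left out the fallen ranged over 1 to 515 with a segment and 0 to 179 without one. A segment was present in 9 of the 10 V0 and accessory proteins and in 0 of the 8 V1 proteins. In the pools, all genes with a segment had a median of 0.01 and those without one -0.01. The part of this class in the fall of the 33 genes was not tested.

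Other cell types and overlapping genes bear on single values. Trophectoderm markers summed to 970.4 to 2158.8 CPM in knockout and 1752.6 to 1922.3 CPM in wild-type single embryos, and 0 of 6 tested passed, also at an unadjusted p under 0.05 (edgeR). Of 7 primitive endoderm markers, Col4a1 fell (-1.63, adjusted p = 0.0292), and Pdgfra (-1.76) and Dab2 (0.63) had an unadjusted p under 0.05. Their median change was -0.46 and their sum was 889.6 to 1105.1 CPM in knockouts, against 992.6 to 1196.6 CPM in wild types. In both lists the ranges of the sums overlapped, and the part of these markers, or of Cdh1, in the fall of the lysosomal genes was not tested. Of the 33 genes 14 overlap another gene of the table, 7 of them among the 17 that fell, and the labels do not say how the counting used strand. Ctsb overlaps Fdft1 on the opposite strand, which rose (0.91) and averaged 321.6 CPM in knockouts, against 176.9 CPM in wild types. Npc1 overlaps 3110002H16Rik, with 104.9 CPM in knockouts and 52.2 CPM in wild types. Glb1 overlaps Tmppe on the same strand, where strand cannot tell them apart. Tmppe averaged 117.0 CPM in knockouts, against 247.0 CPM in wild types (log2 change -1.02, not past), and Glb1 79.9 and 139.9 CPM. The partners of Hexa, Grn and Scarb2 averaged at most 1.0 CPM in either group.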

How the data were processed

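The authors deposited whole-number read counts per gene for 10 libraries, per the file header without normalization. Per the labels' protocols, cDNA was made with SMART-Seq v4, libraries with Nextera XT, and single-end sequencing gave reads of 75 bases. The submitters' processing notes name RSEM 1.3.1, STAR 2.7.6a and fastp 0.21.0, and the build mm10, without saying which made the counts. Annotation and strand handling: not given in the sources used here. Without molecular identifiers, counts can include copies of 1 molecule. Near-identical libraries were looked for and none found.

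Tests ran on these counts with edgeR 4.0.16 in R 4.3.3 (filterByExpr, TMM factors 0.902 to 1.113, quasi-likelihood F test, two-sided, Benjamini-Hochberg adjustment over all genes at 5%). Each set was fitted by itself, and the difference between sets over all 10 libraries. Fitted log2 changes carry edgeR's prior count. CPM were computed from library totals. Coordinates, transcript lengths (the median per gene) and translated coding sequences came from GENCODE M21 (GRCm38), which matched 27302 of the table's gene names (75.89%). These translations stood in for RefSeq proteins, which were not used here. A segment is a window of 19 residues with a mean Kyte-Doolittle value of at least 1.6. Promoters came from RefSeq (GRCm38.p6). Tests were checked on simulated data.

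The members and lists were chosen with earlier results of these data known. Named were all members, Jarid2, the 3 genes with the smallest p from each other list, and any list gene called, of which some are not reported here. Alternatives were other scalings, DESeq2 1.42.0, limma-voom (limma 3.58.1), other filters, robust fitting, all libraries in 1 fit, a replicate block, and leaving out each library.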

Additional observations from a re-analysis of the deposited data

Results flagged for a closer look

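Grn and the small GTPase gene Rab7 are listed because every library of 1 set moved one way and every library of the other set the opposite way. The difference between the sets' knockout changes was -1.24 for Grn, with -1.15 in single embryos and 0.11 in pools, and 0.92 for Rab7, with 0.61 and -0.29. The edgeR test of these differences gave adjusted p values of 0.235 and 0.248, which did not pass.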

How the results depend on the processing

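In single embryos edgeR called 605 genes and 17 of the 33 members; other settings called 1957 genes (DESeq2), 1715 (no filter on low counts) and 1667 (all 10 libraries in 1 fit). With the replicate number as a block, 187 genes and 5 members were called, 4 of them among the 17 and the other Tpp1, and in the pools 39 genes. The replicate numbers are not shown to pair samples, as same-numbered single embryos correlated at -0.016 and -0.078 and same-numbered pools at 0.326, over 2 pairs in each set. Leaving out 1 library gave 1 to 1316 genes and 0 to 15 members. In the pools 0 genes became 71 by DESeq2, 1 by limma-voom and 170 without the filter (2 members, Asah1 and Ctsc), and 25 to 379 genes and 0 to 2 members with 1 library left out, when a lone library is assumed to vary like the rest; the members' median was -0.34 to -0.01. The difference between sets, 1 gene in the fit reported, gave 544 genes and 7 members by DESeq2, 548 and 9 without the filter, and 0 to 2 genes with 1 library left out.

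Signs turned only among small or noisy changes, and the cause was not tested. In single embryos limma-voom gave Gusb 0.21, Arsb -0.50 and Lipa -0.08, and the replicate block Gusb 0.84 and Arsb -1.50. In the pools, upper-quartile scaling gave Ctsd 0.03, Ctsh 0.02 and Gusb 0.04, library totals gave Ctsd 0.06, Ctsh 0.05, Gusb 0.08, Sgsh 0.08 and Npc1 0.01, and a filter of 1 CPM gave Gusb 0.01. With 1 library left out, single-embryo changes ran from -0.70 to 0.41 in Gusb, -1.91 to 0.46 in Idua, -1.44 to 1.09 in Arsb, -0.35 to 0.26 in Ids and -2.26 to 1.18 in Lipa. Pooled ones ran from -0.11 to 0.06 in Ctsd, -0.24 to 0.16 in Ctsh, -0.60 to 0.13 in Ctsl, -0.37 to 0.04 in Ctsz, -0.08 to 0.05 in Gusb, -0.45 to 0.55 in Arsa, -0.00 to 0.45 in Ids, -1.86 to 0.73 in Sgsh, -0.39 to 0.06 in Psap, -0.06 to 0.27 in Grn, -0.35 to 0.02 in Lamp1, -0.53 to 0.04 in Lamp2, -0.07 to 0.27 in Scarb2 and -0.21 to 0.06 in Npc1. None of the 17 genes that fell in single embryos changed sign there under any setting run. Depth limits the lowest members, such as Manba with 0 to 57 counts in a single embryo.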
